A study of Mus musculus with 24 samples.

Results

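Type I interferon stimulated genes were followed as a set of 38 genes in RNA from mouse tumours. The genes were taken by name from a list and matched by symbol to the 55335 Ensembl gene IDs of the deposited table, where each of the 38 was found. The tumours came from MC38, a colon carcinoma line, and from B16, a melanoma line, each used as a CHEK2-knock out (KO) or as the parental CHEK2-WT line (WT). CHEK2 is a kinase of the DNA damage response. Treatment was either PBS or anti-PD-1, an antibody that blocks the T cell checkpoint receptor PD-1. In each line there were 3 libraries of KO tumours under anti-PD-1, 3 of KO tumours under PBS, 3 of WT tumours under anti-PD-1 and 3 of WT tumours under PBS, so that 24 libraries were used. The labels used here do not state how the knock out was made, how many clones were used, the strain or age of the hosts, the antibody dose, or whether replicate libraries represent separate animals, so p-values measure only the spread between these libraries. The RNA came from tumour tissue and includes RNA of host cells.

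Type I interferons, the interferon-alpha family and interferon-beta, are secreted after cells sense foreign or misplaced nucleic acid. They bind the receptor chains IFNAR1 and IFNAR2, whose kinases phosphorylate STAT2. Together with IRF9 it takes part in a complex that binds the interferon stimulated response element (ISRE) of target genes. Many of the same genes also respond to interferon-gamma, the product of activated T and NK cells, which acts through its own receptor. In tumours, interferon stimulated genes can be expressed by malignant cells, macrophages, dendritic cells and lymphocytes alike.

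By role, 3 members are signalling factors (Irf7, Irf9, Stat2) and 5 are nucleic acid sensors (Ddx58, which encodes RIG-I; Ifih1, which encodes MDA5; Dhx58, Zbp1 and the kinase gene Eif2ak2). The IFIT group has 4 members (Ifit1, Ifit2, Ifit3, Ifit3b), whose proteins bind viral RNA. The OAS group has 5 (Oas1a, Oas2, Oas3, Oasl1, Oasl2), oligoadenylate synthetases and their relatives. There are 2 Mx GTPases (Mx1, Mx2), 3 members of the ISG15 system (the ubiquitin-like Isg15, its protease Usp18 and the ligase Herc6) and 3 members that encode ADP-ribosyltransferases or their partner ligase (Parp9, Parp14, Dtx3l). The other 13 encode further effectors (Rsad2, Cmpk2, Bst2, Samd9l, Adar, Trim30a, Xaf1, Rtp4, Ifi44, Ifi35, Epsti1, Ifi27, Ifi27l2a). The members lie on 14 chromosomes, with the 5 OAS genes on chromosome 5 and the 4 IFIT genes on chromosome 19. Of the 38, 37 are annotated as protein coding, and Mx2 as a polymorphic pseudogene.

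ISRE-like letters were looked for in the promoter windows of RefSeq (GRCm38.p6), from 250 bases before to 50 bases after each transcription start. The letters were GAAANNGAAA, read on both strands, so that TTTCNNTTTC is the same match on the other strand and matches may overlap. Of the 38 members, 27 had a window, and 13 of these (48.1%) held a match, against 1079 of 27025 genes (3.99%) in the whole table. A match is a description of the letters only. Ifit2, Irf7, Epsti1, Dtx3l, Xaf1 and Cmpk2, all called in comparisons below, had a window without a match. Ifit1 had a match and was called in no comparison within a line. The stretches of 8 members are shown because the results turn on several of these genes and the letters are those that the interferon complex is known to bind. They run 5′ to 3′ along the gene, with matches in capitals, and all lie before the transcription start. They are Isg15 (chr4:156200860-156200911, minus strand), Ifit1 (chr19:34640770-34640828, plus strand), Ifit3 (chr19:34583358-34583431, plus strand), Ifit3b (chr19:34607754-34607827, plus strand), Oas3 (chr5:120777710-120777749, minus strand), Rsad2 (chr12:26456548-26456587, minus strand), Stat2 (chr10:128270261-128270300, plus strand) and Bst2 (chr8:71537572-71537617, minus strand).
Isg15: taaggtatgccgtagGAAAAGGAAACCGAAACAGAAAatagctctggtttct
Ifit1: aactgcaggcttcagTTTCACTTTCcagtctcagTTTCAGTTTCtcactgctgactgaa
Ifit3: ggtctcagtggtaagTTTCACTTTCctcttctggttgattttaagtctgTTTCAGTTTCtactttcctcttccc
Ifit3b: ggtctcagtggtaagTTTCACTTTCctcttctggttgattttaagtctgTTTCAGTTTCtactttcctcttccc
Oas3: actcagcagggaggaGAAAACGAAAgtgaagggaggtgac
Rsad2: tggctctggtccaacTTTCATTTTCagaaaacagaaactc
Stat2: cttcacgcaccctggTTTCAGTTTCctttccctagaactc
Bst2: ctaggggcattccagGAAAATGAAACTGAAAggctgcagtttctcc

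The Ifit3 and Ifit3b stretches have 0 differences over 74 bases. The same pair shares sequence in its transcripts: 51.2% of the 50-base words of the longest Ifit3 transcript also occur in Ifit3b. For the longest Oas1a transcript, 57.6% of the words occur in Oas1g, which is not a member. How reads were shared out between such copies is not given in the sources used here, so the levels of Ifit3, Ifit3b and Oas1a are uncertain. Parp9 and Dtx3l overlap by 682 bases, and 13 members overlap a gene on the opposite strand; whether the counting used strand is not given either.

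Values were FPKM, the authors' read count scaled for transcript length and library size. The depth was estimated from low values at 13304627 to 24148408 reads per library, an uncertain figure, since 8.2 to 21.9% of those values came out whole. Chek2 stood at 2.2, 2.4 and 1.92 FPKM in MC38 KO tumours under PBS, against 6.14, 5.15 and 4.61 in WT (log2 difference -0.99 ± 0.0986, adjusted p = 0.000178). In B16 it stood at 5.68, 5.64 and 5.67 FPKM in KO tumours under PBS, against 7.7, 7.93 and 7.17 in WT (log2 difference -0.37 ± 0.0865, adjusted p = 0.106), so it was lower with the KO label in MC38 and did not pass the test in B16 under PBS. Under anti-PD-1, Chek2 was lower in KO than in WT in MC38 (log2 difference -0.61 ± 0.0986, adjusted p = 0.00375) and in B16 (-0.31 ± 0.0865, adjusted p = 0.0154). A lower level does not show which exon was altered. The 7 melanocyte markers summed to 4885.0 to 6285.3 FPKM in B16 libraries. The 8 epithelium markers summed to 1.18 to 48.1 FPKM in MC38 libraries and to 1.64 to 8.95 FPKM in B16 libraries. Cdx2, which marks intestinal epithelium, was listed at 0 in each group of both lines. Between WT tumours under PBS, 6 epithelium markers were tested, and 1 was called in each direction (limma). Cdh1, which encodes E-cadherin, was higher in MC38 than in B16 (1.45 ± 0.145, adjusted p = 4.33e-08). Vil1 was lower in MC38 (-1.27 ± 0.116, adjusted p = 1.19e-08). The 3 B16 KO libraries under anti-PD-1 stood apart in total: their FPKM summed to 375193 to 398474, against 310868 to 344059 in the other 21 libraries. In them 5 skeletal muscle markers summed to 1633.3, 144.3 and 8.79 FPKM, against 1.16 to 2.8 in the other B16 libraries. Skeletal muscle RNA was not particular to this group, since the same markers summed to 1.05 to 390.4 FPKM in MC38 libraries. Replicate numbers follow accession order and name libraries only.

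In MC38 tumours the members were expressed in every library at fairly even levels, and in B16 tumours many were lower and varied widely between libraries of 1 group. All 38 members reached 1 FPKM in each of the 12 MC38 libraries. In B16 the number that did so ranged from 29 in replicate 1 of WT under anti-PD-1 to 38. The mean log2(FPKM + 1) over the 38 members was 4.71, 4.81 and 4.88 in MC38 KO under anti-PD-1, 4.46, 4.37 and 4.15 in KO under PBS, 4.46, 4.24 and 4.79 in WT under anti-PD-1, and 4.63, 4.64 and 4.62 in WT under PBS. In B16 it was 4.45, 3.04 and 4.11 in KO under anti-PD-1, 2.88, 3.53 and 3.59 in KO under PBS, 2.13, 3.99 and 3.03 in WT under anti-PD-1, and 2.99, 3.15 and 2.81 in WT under PBS. MC38 KO under anti-PD-1 did not overlap KO under PBS in this mean, while the B16 groups under anti-PD-1 spanned nearly the whole range of that line.

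**Figure D1:**
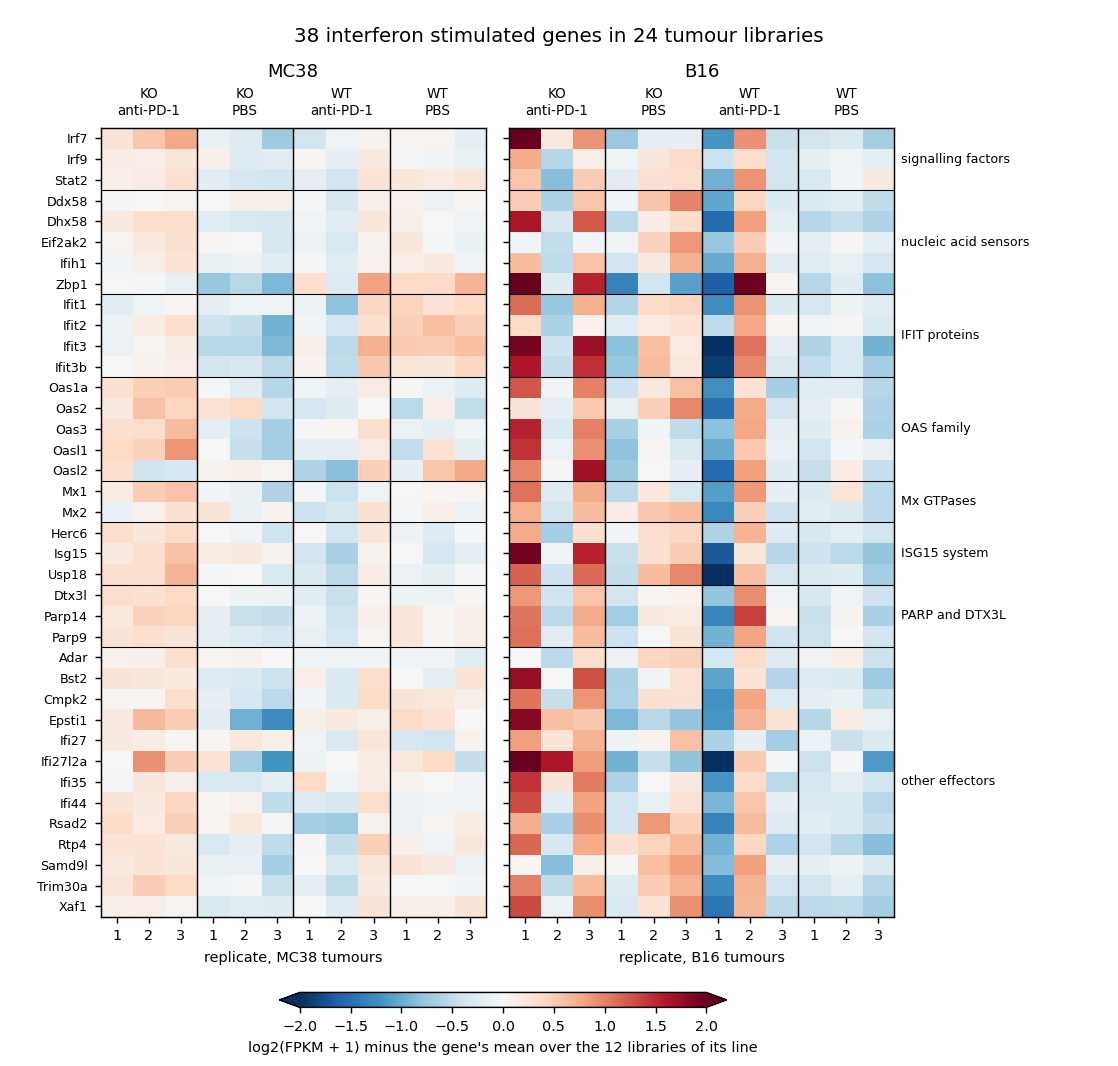
Heat map of the 38 members (rows, by role) in the 24 libraries (columns), as log2(FPKM + 1) minus the gene's mean over the 12 libraries of its line. In B16 whole columns are high or low, such as WT anti-PD-1 replicate 2 (38 of 38 members highest within its group) against replicate 1 (37 of 38 lowest).

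Within B16 WT under anti-PD-1, each of the 38 members was highest in replicate 2 and 37 were lowest in replicate 1. The median member was 5.06 times as high in replicate 2 as in replicate 1, with ratios between 1.38 for Ifi27 and 98.7 for Oas3, while the median over 12028 genes was 1.0. Within B16 KO under anti-PD-1, 36 members were lowest in replicate 2 and 32 were highest in replicate 1, with a median ratio of 3.04 between replicates 1 and 2 (0.949 over all genes). Within B16 KO under PBS, all 38 were lowest in replicate 1. In MC38 the widest group was WT under anti-PD-1, with 35 members highest in replicate 3 and a median ratio of 1.45 between replicates 3 and 2. The median coefficient of variation of a member was 8.92% in MC38 KO under anti-PD-1, 13.1% in KO under PBS, 18.7% in WT under anti-PD-1 and 7.51% in WT under PBS. In B16 it was 50.4% in KO under anti-PD-1, 34.3% in KO under PBS, 74.7% in WT under anti-PD-1 and 14.7% in WT under PBS.

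Immune marker genes differed between the same libraries. The 8 macrophage markers, none of which was at 0 in any library group, summed to 656.7, 260.1 and 344.8 FPKM in B16 KO under anti-PD-1, 78.6, 118.3 and 56.3 in KO under PBS, 52.9, 281.0 and 160.1 in WT under anti-PD-1, and 100.5, 154.1 and 105.7 in WT under PBS. In MC38 the sums were 1214.8, 1417.2 and 1256.4 FPKM in KO under anti-PD-1, 778.8, 551.4 and 291.2 in KO under PBS, 966.2, 985.5 and 1035.3 in WT under anti-PD-1, and 1011.8, 983.7 and 922.0 in WT under PBS. The 7 CD8 and T cell markers summed to 29.5, 40.8 and 26.4 FPKM in MC38 KO under anti-PD-1, 5.3, 3.5 and 3.98 in KO under PBS, 33.8, 31.2 and 28.5 in WT under anti-PD-1, and 37.0, 32.8 and 22.8 in WT under PBS. In B16 those markers stood at 23.9, 6.82 and 13.2 FPKM in KO under anti-PD-1, against at most 5.81 in any library of the other groups. MC38 KO tumours under PBS thus had the lowest sums of both lists in that line, and the part of these cells in the member levels was not tested. In bulk RNA, fewer cells of a type and less RNA per cell cannot be told apart.

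**Figure D2:**
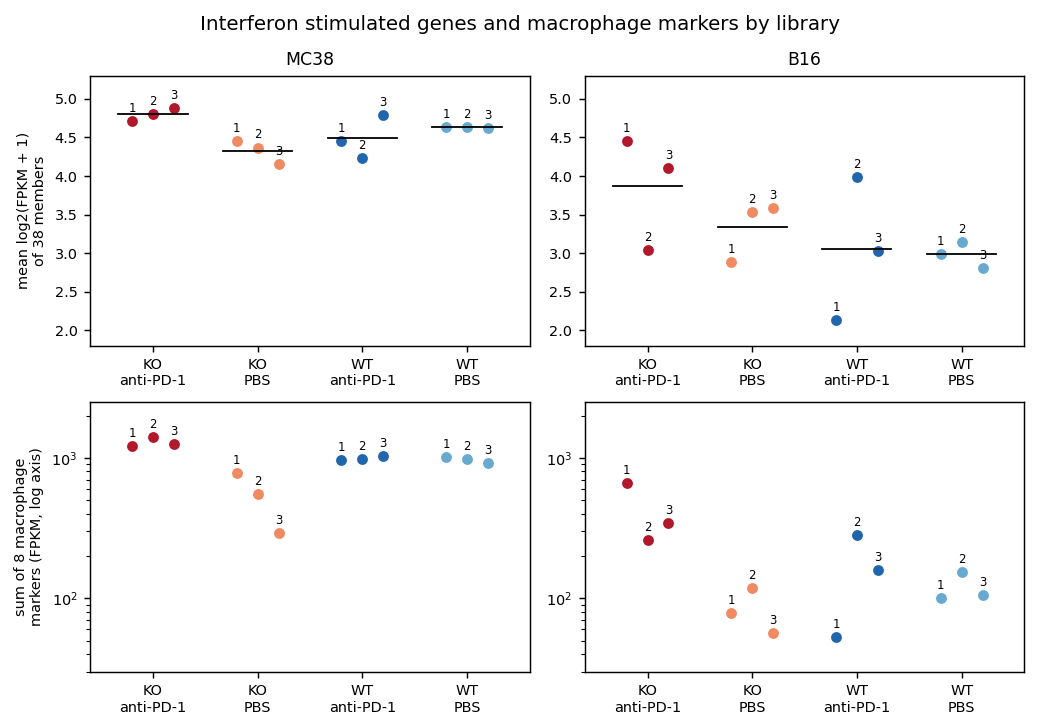
Upper panel: mean log2(FPKM + 1) over the 38 members in each library, with a line at the group mean; lower panel: summed FPKM of 8 macrophage markers on a log axis. In MC38, KO tumours under PBS have the lowest group mean in the upper panel (4.33, against 4.80 in KO under anti-PD-1), although WT anti-PD-1 replicate 2 (4.24) lies within their range.

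Single members did not all follow the mean of the set. Isg15 stood at 112.1, 124.8 and 147.7 FPKM in MC38 KO under anti-PD-1, 108.7, 112.2 and 103.3 in KO under PBS, 75.2, 62.8 and 103.6 in WT under anti-PD-1 and 98.4, 77.5 and 85.7 in WT under PBS. In B16, Isg15 stood at 181.9, 44.4 and 137.6 FPKM in KO under anti-PD-1, 34.1, 58.1 and 66.2 in KO under PBS, 13.9, 54.8 and 31.3 in WT under anti-PD-1 and 35, 31.9 and 26.9 in WT under PBS. Its range in B16 KO under anti-PD-1 enclosed every MC38 value, and replicate 2 was its low library.

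Ifit1, whose product binds viral RNA, stood at 39.5, 43.7 and 47.6 FPKM in MC38 KO under anti-PD-1, 40.6, 43.7 and 43.6 in KO under PBS, 43, 26.1 and 62.2 in WT under anti-PD-1 and 63.6, 56.7 and 61.2 in WT under PBS. In B16 it stood at 38.2, 9.71 and 28.4 FPKM in KO under anti-PD-1, 11, 22.6 and 23.1 in KO under PBS, 6.58, 32.6 and 13.9 in WT under anti-PD-1 and 13.2, 15.8 and 14.4 in WT under PBS. Each WT library under PBS in MC38 was above every KO library of that line, and in B16 the groups overlapped.

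Oasl2, a relative of the oligoadenylate synthetases, stood at 33.3, 19.7 and 20.4 FPKM in MC38 KO under anti-PD-1, 27.5, 28.1 and 27.4 in KO under PBS, 16.9, 14.3 and 36.7 in WT under anti-PD-1 and 23.2, 39 and 45 in WT under PBS. In B16 it stood at 7.15, 3.21 and 12.3 FPKM in KO under anti-PD-1, 1.47, 3.1 and 2.71 in KO under PBS, 0.404, 6.28 and 2.5 in WT under anti-PD-1 and 2.02, 3.6 and 2.01 in WT under PBS. It varied within most groups of both lines and passed no test within a line.

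Irf9, the DNA binding partner of STAT2, passed no test within a line. It stood at 9.16, 9.04 and 9.82 FPKM in MC38 KO under anti-PD-1, 8.77, 6.61 and 6.93 in KO under PBS, 8.39, 7.11 and 9.3 in WT under anti-PD-1 and 8.02, 7.82 and 7.32 in WT under PBS. In B16 it stood at 13, 4.65 and 8.2 FPKM in KO under anti-PD-1, 6.9, 8.79 and 9.9 in KO under PBS, 5.22, 9.61 and 5.46 in WT under anti-PD-1 and 6.47, 6.96 and 6.35 in WT under PBS. Adar, which encodes an RNA editing enzyme with an interferon induced isoform, stood at 10.2, 10.3 and 12.2 FPKM in MC38 KO under anti-PD-1, 9.83, 10.1 and 9.53 in KO under PBS, 9, 9.12 and 9.2 in WT under anti-PD-1 and 9.04, 9.05 and 8.01 in WT under PBS. Adar in B16 stood at 8.62, 5.66 and 11.2 FPKM in KO under anti-PD-1, 7.81, 11.9 and 12.2 in KO under PBS, 6.54, 11.4 and 7.02 in WT under anti-PD-1 and 8.15, 9.5 and 6.08 in WT under PBS. Both genes lay in a similar range in the 2 lines.

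The first comparison asked how the CHEK2 knock out bore on the members in tumours that received PBS. In MC38, 10 of the 38 members were lower in KO than in WT tumours and none was higher (limma on log2(FPKM + 1), Benjamini-Hochberg adjusted p under 0.05 over 14209 genes). Of all tested genes, 11.6% were lower and 23.4% were called in either direction. The members that fell were 3 of the 4 IFIT genes, Zbp1 of the sensors, Stat2 of the signalling factors, Parp9 and Parp14, and Epsti1, Cmpk2 and Xaf1 of the other effectors. No OAS, Mx or ISG15 system member passed the test. The median member differed by -0.29 on the log2 scale, against 0.01 for all genes, and 18 members were lower and 2 higher without overlap of the groups, against 19.5% and 20.4% of all genes.

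Zbp1, which senses nucleic acid in the Z form and can start necroptosis, stood at 18.1, 21 and 16.3 FPKM in KO tumours under PBS, against 41.7, 41.2 and 50.9 in WT (log2 difference -1.23 ± 0.211, adjusted p = 0.00271; ± gives the SE). Ifit3 stood at 48.6, 48.8 and 38.4 FPKM in KO, against 104.3, 103.0 and 109.5 in WT (-1.21 ± 0.237, adjusted p = 0.00514). Ifit2 stood at 25.5, 24.3 and 17.3 FPKM in KO, against 48.1, 52.5 and 48.3 in WT (-1.13 ± 0.182, adjusted p = 0.002). In each of these genes every KO library was below every WT library. Epsti1, named for epithelial-stromal interaction, stood at 8.32, 4.57 and 3.48 FPKM in KO, against 13, 12.2 and 9.83 in WT (-1.04 ± 0.225, adjusted p = 0.00833). Ifit3b stood at 14.5, 15.1 and 13 FPKM in KO, against 22.8, 22.6 and 25.7 in WT (-0.70 ± 0.197, adjusted p = 0.0269), and shares sequence with Ifit3 as given above.

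Smaller decreases were found in 5 members. Cmpk2, a mitochondrial nucleotide kinase, stood at 12.5, 11 and 9.51 FPKM in KO tumours under PBS, against 17.1, 16.4 and 15.3 in WT (log2 difference -0.53 ± 0.151, adjusted p = 0.0278). Stat2 stood at 15.8, 14.6 and 14.2 FPKM in KO, against 21.9, 20.9 and 22.3 in WT (-0.51 ± 0.137, adjusted p = 0.021). Parp14 stood at 26.3, 21.3 and 20.9 FPKM in KO, against 34.9, 30.3 and 31.7 in WT (-0.49 ± 0.132, adjusted p = 0.0226). Their groups did not overlap either. Xaf1, which promotes cell death, and Parp9 were lower by the same test (log2 differences -0.41 ± 0.108, adjusted p = 0.0211 and -0.39 ± 0.0954, adjusted p = 0.0146). Of the members that were not called, Ifit1 differed by -0.49 ± 0.226, adjusted p = 0.137, Irf7 by -0.35 ± 0.171, adjusted p = 0.163, and Isg15 by 0.31 ± 0.164, adjusted p = 0.191.

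Also lower in these KO tumours were 4 of 8 macrophage markers and 7 of 7 CD8 and T cell markers. So were 5 of 5 NK cell markers and 2 of 6 fibroblast markers. Cox6a2 was higher, but of the 5 listed markers of plasmacytoid dendritic cells it was the 1 that was tested. The list therefore rests on 1 gene. The part of these cells in the member differences was not tested. Ifit2, Ifit3, Zbp1 and Epsti1 were called in each of the 6 fits that left out 1 library. The count of called members was 4 without KO PBS replicate 3 and 6 without KO PBS replicate 2 or WT PBS replicate 1.

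**Figure D3:**
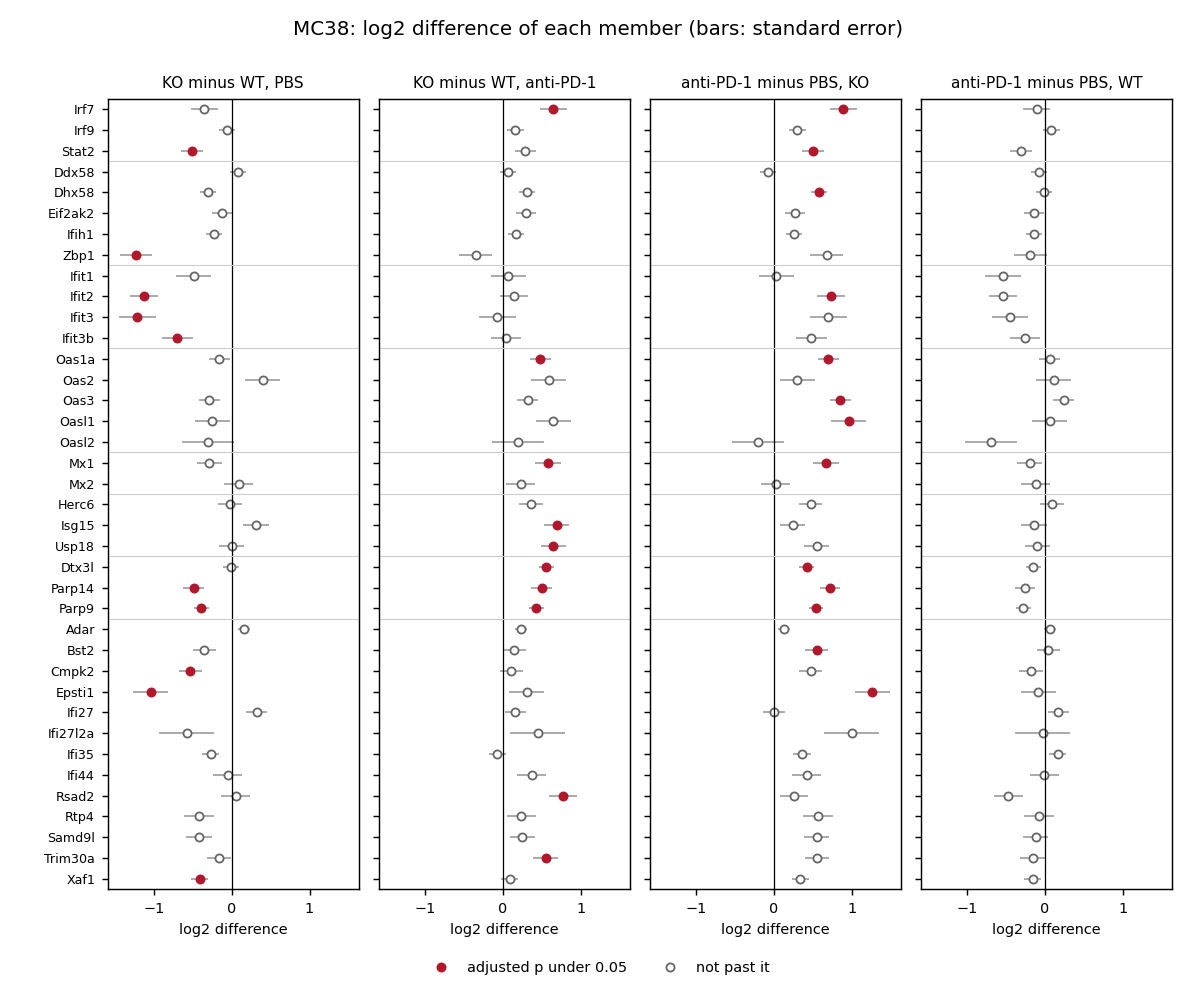
Log2 differences of the 38 members (rows, by role) in MC38 tumours in 4 comparisons, with bars of 1 SE; red points have an adjusted p under 0.05. Called members lie below 0 in KO minus WT under PBS (10 of 38, against 11.6% of all tested genes called lower). They lie above 0 in KO minus WT under anti-PD-1 (10, against 5.01% called higher) and in anti-PD-1 minus PBS in KO (13, against 6.12%). None is called in WT, and neither is any other gene.

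Under anti-PD-1 the members called between MC38 genotypes were higher in KO tumours. In this comparison 10 of 38 members were higher in KO than in WT and none was lower (limma, same threshold; 5.01% of all tested genes were higher and 12.1% were called in either direction). They were Rsad2, Isg15, Irf7, Usp18, Mx1, Dtx3l, Trim30a, Parp14, Oas1a and Parp9. Over the 38 members the median difference was 0.30 on the log2 scale, against 0.00 for all genes. In 13 members the KO libraries were all above the WT libraries, against 16% of all genes, and in none were they all below, against 18% of all genes.

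Rsad2, which encodes the antiviral radical enzyme viperin, stood at 43.5, 37.7 and 47.2 FPKM in KO under anti-PD-1, against 20.9, 19.9 and 35.2 in WT under anti-PD-1 (log2 difference 0.77 ± 0.182, adjusted p = 0.0207). Isg15 stood at 112.1, 124.8 and 147.7 FPKM in KO, against 75.2, 62.8 and 103.6 in WT (0.69 ± 0.164, adjusted p = 0.022). Irf7, the factor that amplifies interferon-alpha expression, stood at 14.9, 18.3 and 21.5 FPKM in KO, against 9.32, 11.6 and 12.9 in WT (0.65 ± 0.171, adjusted p = 0.0327). In these 3 genes the WT library nearest to the KO group was replicate 3. Usp18, which removes ISG15 and dampens signalling at IFNAR2, stood at 20.2, 20 and 26 FPKM in KO, against 12.9, 10.8 and 17.7 in WT (0.65 ± 0.158, adjusted p = 0.0231). Mx1 stood at 7.24, 9.62 and 10 FPKM in KO, against 6.34, 4.54 and 6.1 in WT (0.58 ± 0.162, adjusted p = 0.0403). Dtx3l, the ubiquitin ligase that partners Parp9, stood at 42.3, 40.8 and 43.5 FPKM in KO, against 28.2, 24 and 33.5 in WT (0.56 ± 0.1, adjusted p = 0.00625). Dtx3l had narrow groups that did not overlap.

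Trim30a, a ubiquitin ligase of mouse immune cells, stood at 41.2, 48.9 and 45.9 FPKM in KO, against 30, 24.2 and 39.2 in WT under anti-PD-1 (log2 difference 0.55 ± 0.157, adjusted p = 0.0434). Parp14 stood at 34.1, 40.7 and 40.1 FPKM in KO, against 27.4, 22 and 31.8 in WT (0.50 ± 0.132, adjusted p = 0.0337). Oas1a and Parp9 were higher by the same test (0.48 ± 0.135, adjusted p = 0.0428 and 0.43 ± 0.0954, adjusted p = 0.0171). No IFIT member was called, with log2 differences between -0.07 and 0.14. Ifit3 stood at 66.5, 75 and 79.6 FPKM in KO, against 77.5, 49.6 and 118.6 in WT, so the WT values enclosed the KO values.

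These calls leaned on single libraries. Dtx3l alone was called in each of the 6 fits that left out 1 library. With WT anti-PD-1 replicate 1 left out, 1 member was called; with its replicate 2 left out there were 3, among them Zbp1 as lower. Leaving out KO anti-PD-1 replicate 2 gave 3 members, and leaving out its replicate 3 gave 2. None of the 8 macrophage, 7 CD8 and T cell or 5 NK cell markers was called between these groups. Of the dendritic cell markers, Xcr1 of the conventional type (1 of 3 tested, 0.71 ± 0.158, adjusted p = 0.0165) and Cox6a2, the 1 tested marker of the plasmacytoid type (1.94 ± 0.236, adjusted p = 0.000927), were higher in KO, and of 6 fibroblast markers Dcn was lower (-1.54 ± 0.283, adjusted p = 0.00694). Their part in the member differences was not tested.

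Treatment was next compared within a genotype. In MC38 KO tumours, 13 of 38 members were higher under anti-PD-1 than under PBS and none was lower (limma, same threshold; 6.12% of all tested genes were higher and 8.99% were called in either direction). The called members were spread over the roles: Irf7 and Stat2, the sensor Dhx58, Ifit2, 3 of 5 OAS genes (Oas1a, Oas3, Oasl1), Mx1, all 3 of Parp9, Parp14 and Dtx3l, and Epsti1 and Bst2. No ISG15 system member was called. The median member differed by 0.49 on the log2 scale, against -0.02 for all genes, and in 29 members every anti-PD-1 library was above every PBS library, against 14.6% of all genes.

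Epsti1 stood at 11.2, 16 and 14.3 FPKM in KO tumours under anti-PD-1, against 8.32, 4.57 and 3.48 under PBS (log2 difference 1.26 ± 0.225, adjusted p = 0.00664). Oasl1, a relative of the OAS enzymes that restrains Irf7 translation in mice, stood at 10.5, 11 and 15 FPKM under anti-PD-1, against 7.73, 5.34 and 4.44 under PBS (0.96 ± 0.223, adjusted p = 0.023). Irf7 stood at 14.9, 18.3 and 21.5 FPKM under anti-PD-1, against 11.1, 10.1 and 7.12 under PBS (0.89 ± 0.171, adjusted p = 0.00928). In all of these the treated libraries lay above the PBS libraries, of which replicate 3 was the lowest. Oas3 stood at 12.9, 13.2 and 16.3 FPKM under anti-PD-1, against 8.82, 7.4 and 6.06 under PBS (0.85 ± 0.134, adjusted p = 0.00376). Ifit2 stood at 31.8, 38 and 43.1 FPKM under anti-PD-1, against 25.5, 24.3 and 17.3 under PBS (0.73 ± 0.182, adjusted p = 0.0309). Parp14 stood at 34.1, 40.7 and 40.1 FPKM under anti-PD-1, against 26.3, 21.3 and 20.9 under PBS (0.72 ± 0.132, adjusted p = 0.00711). These groups did not overlap.

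Oas1a stood at 36.4, 41.1 and 42.3 FPKM under anti-PD-1, against 28.6, 25.3 and 19.5 under PBS (log2 difference 0.70 ± 0.135, adjusted p = 0.00933). Mx1 stood at 7.24, 9.62 and 10 FPKM under anti-PD-1, against 6.15, 5.8 and 3.88 under PBS (0.67 ± 0.162, adjusted p = 0.0258). The remaining called members were Dhx58 (0.58 ± 0.103, adjusted p = 0.00659), the tetherin gene Bst2 (0.55 ± 0.149, adjusted p = 0.0435), Parp9 (0.54 ± 0.0954, adjusted p = 0.00642), Stat2 (0.50 ± 0.137, adjusted p = 0.046) and Dtx3l (0.42 ± 0.1, adjusted p = 0.0254). Ifit3, which was lower in KO under PBS, stood at 66.5, 75 and 79.6 FPKM under anti-PD-1, against 48.6, 48.8 and 38.4 under PBS, and did not pass (0.70 ± 0.237, adjusted p = 0.0982). Isg15 did not pass either (0.24 ± 0.164, adjusted p = 0.432), nor did Ifit1 (0.03 ± 0.226, adjusted p = 0.964).

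In these tumours 7 of 8 macrophage markers, 7 of 7 CD8 and T cell markers and 2 of 5 NK cell markers were higher under anti-PD-1. Of 3 tested conventional dendritic cell markers Xcr1 alone was called, as higher, and the median difference of the 3 was -0.02. None of 6 fibroblast markers was called. The part of these cells in the member differences was not tested. Dhx58, Epsti1, Parp9, Irf7, Oas3, Parp14 and Oas1a were called in each of the 6 fits that left out 1 library. With KO PBS replicate 2 left out 8 members were called, and leaving out KO PBS replicate 3 gave 7, as did leaving out either replicate 2 or replicate 3 of KO under anti-PD-1. This comparison shares the KO PBS libraries with the first comparison and the KO anti-PD-1 libraries with the second.

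In MC38 WT tumours no member was called between anti-PD-1 and PBS, and neither was any other gene (limma, 0% of 14209 genes called). At an unadjusted p under 0.05 there were 5 members, against 13.7% of all genes, and the smallest adjusted p of a member was 0.237. Over the 38 members the median difference was -0.12 on the log2 scale. Ifit3 stood at 77.5, 49.6 and 118.6 FPKM under anti-PD-1, against 104.3, 103.0 and 109.5 under PBS (-0.45 ± 0.237, adjusted p = 0.436), and the treated libraries lay on both sides of the PBS libraries. Irf7 stood at 9.32, 11.6 and 12.9 FPKM under anti-PD-1, against 12.8, 12.8 and 10.8 under PBS (-0.11 ± 0.171, adjusted p = 0.819). Stat2 stood at 16.3, 14 and 22.8 FPKM under anti-PD-1, against 21.9, 20.9 and 22.3 under PBS (-0.31 ± 0.137, adjusted p = 0.356). Treated and PBS libraries overlapped in both genes.

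The treatment difference itself was then compared between MC38 genotypes by the interaction term. It was positive in 36 of 38 members, against 44.5% of all genes, with a median of 0.63 against -0.03 for all genes, and 3 members passed the test: Ifit2 (1.27 ± 0.258, adjusted p = 0.0359), Parp14 (0.98 ± 0.187, adjusted p = 0.0314) and Parp9 (0.82 ± 0.135, adjusted p = 0.021). Of all genes 1.81% had a called positive interaction and 2.44% one in either direction. At an unadjusted p under 0.05 there were 25 members, against 19.5% of all genes. Since members rose and fell together between libraries, these counts do not rest on separate observations. Ifit2 stood at 32.9, 26.9 and 43.7 FPKM in WT tumours under anti-PD-1, against 48.1, 52.5 and 48.3 under PBS, with its KO values given above. Parp14 stood at 27.4, 22 and 31.8 FPKM in WT under anti-PD-1, against 34.9, 30.3 and 31.7 under PBS. In Parp9 the KO libraries stood at 43.5, 46.1 and 43.5 FPKM under anti-PD-1, against 32, 30.1 and 28.6 under PBS, and the WT libraries at 32.8, 28.4 and 37.7 FPKM under anti-PD-1, against 43, 37.2 and 39.7 under PBS. In these 3 genes the treated KO libraries were above the PBS ones, while most treated WT libraries were below theirs. Parp9 was called in 9 of the 12 fits that left out 1 library and Parp14 and Ifit2 in 3 each. With WT anti-PD-1 replicate 3 left out 11 members were called, with KO PBS replicate 1 left out 9, with KO anti-PD-1 replicate 1 left out 4, and with any other library left out 0 or 1.

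In B16 tumours under PBS no member was called between KO and WT (limma, 0.47% of 13627 genes called in either direction). At an unadjusted p under 0.05 there were 2 members, against 13.3% of all genes, and the smallest adjusted p was 0.27. The median member differed by 0.35, against -0.05 for all genes, and 7 members were higher without overlap, against 7.54% of all genes. Over all genes 38 were higher and 26 lower, against 16 and 28 with values rescaled over protein-coding genes and 45 and 19 with quantile normalization. Isg15 stood at 34.1, 58.1 and 66.2 FPKM in KO, against 35, 31.9 and 26.9 in WT (0.69 ± 0.534, adjusted p = 0.636). Rtp4, which encodes a chaperone of cell surface receptors, had the largest difference and stood at 7.85, 8.8 and 10.2 FPKM in KO, against 4.51, 3.84 and 2.99 in WT (1.06 ± 0.38, adjusted p = 0.27). Stat2 stood at 4.43, 6.85 and 7 FPKM in KO, against 4.16, 5.11 and 6.15 in WT (0.20 ± 0.456, adjusted p = 0.898). The KO libraries of Rtp4 were all above the WT ones, and those of Isg15 and Stat2 were not.

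Under anti-PD-1, 6 of 38 members were higher in B16 KO than in WT tumours and none was lower: Ifi27l2a, Isg15, Bst2, Ifi35, Oas1a and Ifi27 (limma; 14.9% of all tested genes were higher and 40.8% were called in either direction). Over the 38 members the median difference was 0.77 on the log2 scale, against -0.05 for all genes. The share of members called higher was near that of all genes. Without overlap of the groups 2 members were higher, a smaller share than the 19.2% of all genes. Ifi27 and Ifi27l2a encode small mitochondrial or nuclear envelope proteins strongly induced by interferon.

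Ifi27l2a stood at 180.8, 67.3 and 38.4 FPKM in KO under anti-PD-1, against 3.77, 30.8 and 20.8 in WT (log2 difference 2.40 ± 0.675, adjusted p = 0.016). Isg15 stood at 181.9, 44.4 and 137.6 FPKM in KO, against 13.9, 54.8 and 31.3 in WT (1.81 ± 0.534, adjusted p = 0.0201). Bst2 stood at 507.0, 151.1 and 364.4 FPKM in KO, against 72, 181.7 and 99.2 in WT (1.47 ± 0.436, adjusted p = 0.0207). In Isg15 and Bst2 KO replicate 2 lay below WT replicate 2, so the groups overlapped. Ifi35 stood at 46.1, 19.8 and 34.8 FPKM in KO, against 6.65, 21.3 and 10.9 in WT (1.37 ± 0.376, adjusted p = 0.0144). Oas1a stood at 49.6, 19.6 and 42.3 FPKM in KO, against 8.2, 25.3 and 12.5 in WT (1.26 ± 0.411, adjusted p = 0.0303). Ifi27 stood at 249.8, 168.5 and 226.6 FPKM in KO, against 90.1, 124.6 and 87.5 in WT (1.09 ± 0.203, adjusted p = 0.00187). Ifi27 and Ifi27l2a were the members whose groups did not overlap.

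Ifi27 alone was called in each of the 6 fits that left out 1 library. Leaving out WT anti-PD-1 replicate 1, 2 or 3 gave 3, 21 and 4 called members. Leaving out KO anti-PD-1 replicate 1, 2 or 3 gave 1, 16 and 3. With values rescaled over protein-coding genes, the median of all genes was -0.23, 627 genes were higher and 4447 lower, against 2034 and 3526 without rescaling, and the median member differed by 0.66. The median difference of the members was 0.31 with WT anti-PD-1 replicate 1 left out and 1.19 with its replicate 2 left out. Of the macrophage markers 3 of 8, of the tested CD8 and T cell markers 2 of 3 and of the tested skeletal muscle markers 3 of 3 were higher in KO. Of 7 melanocyte markers 1 was higher and 3 were lower, among them Tyrp1 (-0.86 ± 0.134, adjusted p = 0.000646). None of 6 fibroblast or 3 neutrophil markers was called, and the part of these cells was not tested.

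**Figure D4:**
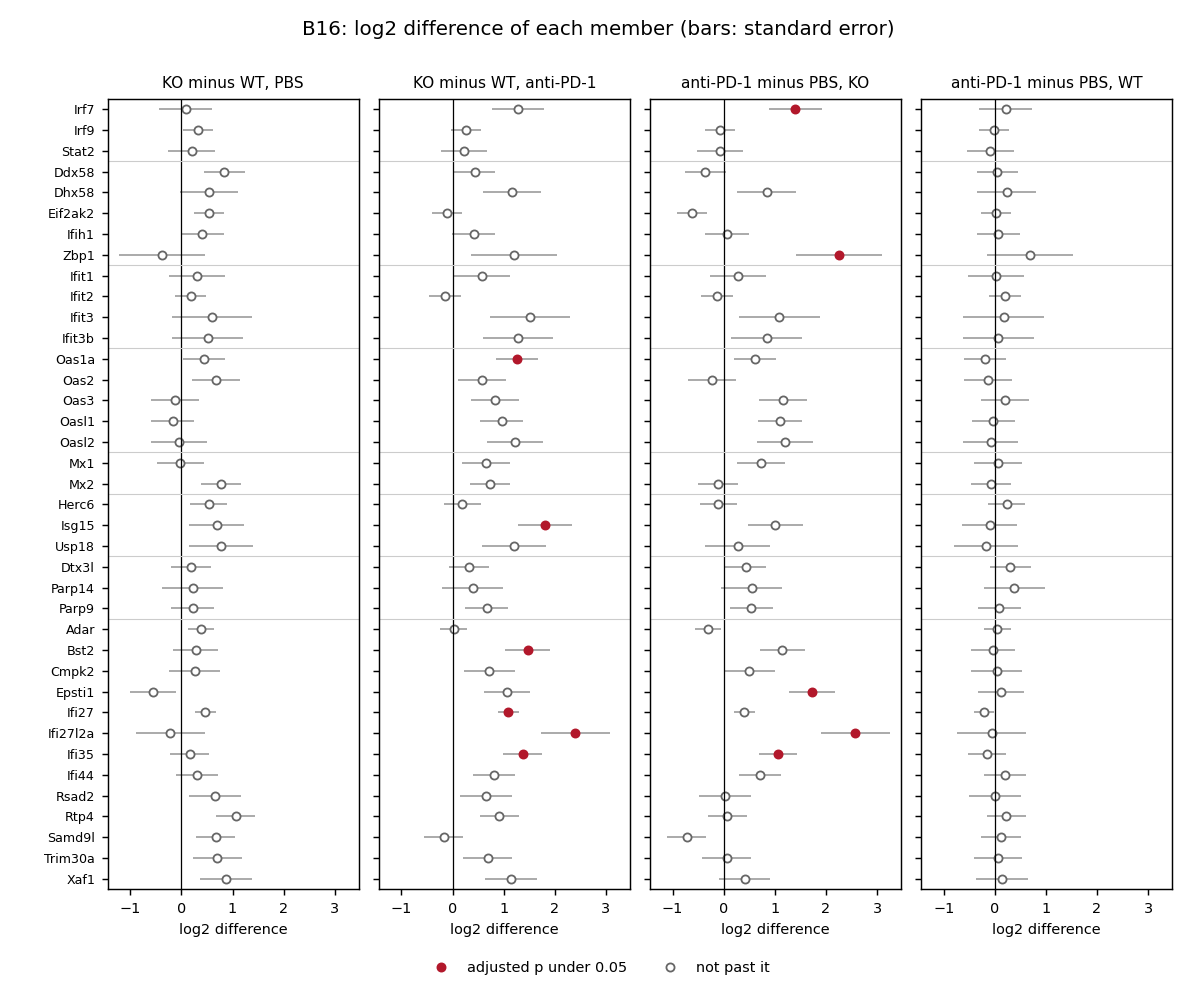
Log2 differences of the 38 members (rows, by role) in B16 tumours in 4 comparisons, with bars of 1 SE; red points have an adjusted p under 0.05. The bars are wide. Called members, all above 0, are found in KO minus WT under anti-PD-1 (6 of 38, against 14.9% of all tested genes called higher). They are also found in anti-PD-1 minus PBS in KO (5 of 38, against 18.9%). The former share is near that of all genes and the latter is below it.

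In B16 KO tumours, 5 members were higher under anti-PD-1 than under PBS and none was lower: Ifi27l2a, Zbp1, Epsti1, Irf7 and Ifi35 (limma; 18.9% of all tested genes were higher and 43.9% were called in either direction). The median member differed by 0.47, against -0.03 for all genes, and 6 members were higher without overlap, against 24.2% of all genes. By both counts the share of members was below that of all genes. Ifi27l2a stood at 180.8, 67.3 and 38.4 FPKM under anti-PD-1, against 10.5, 15.1 and 11.7 under PBS (2.57 ± 0.675, adjusted p = 0.0109). Zbp1 stood at 26.6, 2.52 and 11.1 FPKM under anti-PD-1, against 0.653, 2.25 and 0.979 under PBS (2.26 ± 0.841, adjusted p = 0.0484). In both genes every treated library was above every PBS library, narrowly so in Zbp1. Epsti1 stood at 8.53, 3.06 and 2.89 FPKM under anti-PD-1, against 0.428, 0.822 and 0.569 under PBS (1.73 ± 0.453, adjusted p = 0.0106). Irf7 stood at 12.3, 2.73 and 5.09 FPKM under anti-PD-1, against 0.959, 1.88 and 1.91 under PBS (1.40 ± 0.515, adjusted p = 0.0463). Ifi35 stood at 46.1, 19.8 and 34.8 FPKM under anti-PD-1, against 10.3, 16.3 and 18.7 under PBS (1.06 ± 0.376, adjusted p = 0.0402). These groups did not overlap either.

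Epsti1 and Ifi27l2a were called in each of the 6 fits that left out 1 library. With KO PBS replicate 1 left out 3 members were called (2 higher, and Eif2ak2 lower), and with KO PBS replicate 2 left out 2. Leaving out KO anti-PD-1 replicate 1, 2 or 3 gave 2, 11 and 2. Of the macrophage markers 7 of 8 were higher under anti-PD-1, as were 4 of 6 fibroblast markers and each of the 3 tested CD8 and T cell, 3 tested neutrophil and 3 tested skeletal muscle markers. Of 7 melanocyte markers 1 was higher and 3 were lower, among them Tyrp1 (-0.94 ± 0.134, adjusted p = 0.000399) and Mitf (-0.86 ± 0.158, adjusted p = 0.00162), and the part of these cells was not tested. With values rescaled over protein-coding genes, the median of all genes was -0.18, 1124 genes were higher and 3951 lower, against 2580 and 3408 without rescaling, and Irf7, Zbp1 and Ifi35 lost their calls. This comparison shares the KO anti-PD-1 libraries with the one between genotypes.

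In B16 WT tumours no member was called between anti-PD-1 and PBS (limma, 0% of all genes), none had an unadjusted p under 0.05 (2.06% of all genes), and the median difference was 0.05. Isg15 stood at 13.9, 54.8 and 31.3 FPKM under anti-PD-1, against 35, 31.9 and 26.9 under PBS, so the treated libraries lay on both sides of the PBS group. The median was 0.52 with WT anti-PD-1 replicate 1 left out and -0.40 with its replicate 2 left out. No member passed the B16 interaction test, in which 23.5% of all genes were called, and 3 members had an unadjusted p under 0.05, against 38.2% of all genes. The smallest adjusted p was that of Ifi27l2a (2.62 ± 0.955, adjusted p = 0.0684). The median interaction was 0.45, and it was -0.11 with WT anti-PD-1 replicate 1 left out and 0.83 with its replicate 2 left out. Rescaling over protein-coding genes gave 365 positive and 2445 negative calls over all genes, against 1213 and 1990 without it. In the fit that omits WT anti-PD-1 replicate 2, the 3 members Ifi27l2a, Ifi35 and Epsti1 were called. Leaving out KO anti-PD-1 replicate 2 gave Bst2, and leaving out its replicate 3 gave Ifi27l2a.

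The knock out difference under PBS was compared between lines in 1 fit over all 24 libraries. MC38 minus B16 it was below 0 in 38 of 38 members, while it was above 0 in 55.8% of all genes. The median was -0.62 against 0.05 for all genes. Members rose and fell together between libraries, so their signs are not separate observations. By the limma test 2 members passed: Rtp4 (-1.48 ± 0.454, adjusted p = 0.0467) and Ifit2 (-1.31 ± 0.384, adjusted p = 0.0373). Of all genes 3.44% were called lower and 9.46% in either direction. Rtp4 stood at 9.59, 10.7 and 8.19 FPKM in MC38 KO under PBS, against 13.1, 11.5 and 14.4 in WT, with its B16 values given above. Ifit2 stood at 14.1, 18.8 and 20.3 FPKM in B16 KO under PBS, against 15.9, 16.9 and 13.5 in WT. Rtp4 was called in none of the 12 fits that left out 1 library, and Ifit2 in 2 of them, without MC38 KO PBS replicate 1 or B16 KO PBS replicate 1. The anti-PD-1 difference in KO tumours differed between lines in 1 member, Samd9l (1.27 ± 0.445, adjusted p = 0.0418), while 15.7% of all genes were called higher and 26% in either direction. Samd9l, an antiviral factor that represses translation, stood at 34.1, 35.9 and 34.9 FPKM in MC38 KO under anti-PD-1, against 26.7, 26.8 and 18.4 under PBS. In B16 it stood at 17.6, 9.07 and 18.6 FPKM in KO under anti-PD-1, against 17.5, 26.7 and 31.1 under PBS. Samd9l was called in 4 of the 12 fits that left out 1 library. When B16 KO anti-PD-1 replicate 2 was left out, Zbp1 and Isg15 were called lower in its place. Rescaling over protein-coding genes gave 1217 higher and 376 lower genes in the KO comparison, against 943 and 538 without it, and 2697 and 687 in the anti-PD-1 comparison, against 2453 and 1612. Line and experiment cannot be told apart in these comparisons.

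WT tumours under PBS were also compared between lines. Of the 38 members, 31 were higher in MC38 than in B16 and 1 was lower (limma; 31.1% of all genes were higher, 31.2% were lower and 62.3% were called in either direction). The median member was 1.53 higher on the log2 scale, against -0.01 for all genes, and 36 members were higher without overlap, against 33.7% of all genes. All 5 sensors, all 4 IFIT members and all 3 of Parp9, Parp14 and Dtx3l were higher, as were 4 of 5 OAS members.

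Zbp1 stood at 41.7, 41.2 and 50.9 FPKM in MC38 WT under PBS, against 1.83, 2.53 and 1.37 in B16 (log2 difference 3.98 ± 0.659, adjusted p = 2.91e-05). Ifi44 stood at 15.4, 15.9 and 15.7 FPKM in MC38, against 0.66, 0.666 and 0.39 in B16 (3.41 ± 0.334, adjusted p = 3.19e-08). Oasl2 stood at 23.2, 39 and 45 FPKM in MC38, against 2.02, 3.6 and 2.01 in B16 (3.35 ± 0.482, adjusted p = 5.38e-06). These genes stood at a few FPKM or less in B16. Parp14 stood at 34.9, 30.3 and 31.7 FPKM in MC38, against 3.29, 5.16 and 2.73 in B16 (2.85 ± 0.462, adjusted p = 2.31e-05). Oas3 stood at 9.31, 8.73 and 9.73 FPKM in MC38, against 0.515, 0.885 and 0.158 in B16 (2.78 ± 0.367, adjusted p = 1.79e-06). Dtx3l stood at 30.5, 30.6 and 33.4 FPKM in MC38, against 4.4, 5.36 and 4.07 in B16 (2.54 ± 0.31, adjusted p = 6.65e-07). Xaf1 and Parp9 followed (2.52 ± 0.39, adjusted p = 1.31e-05 and 2.46 ± 0.326, adjusted p = 1.97e-06).

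Ifi27 was the member that was lower, at 51.5, 49.9 and 67.5 FPKM in MC38, against 129.3, 103.1 and 115.7 in B16 (-1.04 ± 0.183, adjusted p = 6.08e-05). The 6 members that were not called were Irf9, Adar, Usp18, Mx2, Rsad2 and Oas1a. Of the 32 calls, 28 held in each fit that left out 1 library, and Eif2ak2, Herc6, Bst2 and Ifit3b lost theirs at least once. The 8 macrophage, 7 CD8 and T cell and 5 NK cell markers were also all higher in MC38, as were 4 of 6 fibroblast markers, while the 7 melanocyte markers were all lower, and their part was not tested.

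**Figure D5:**
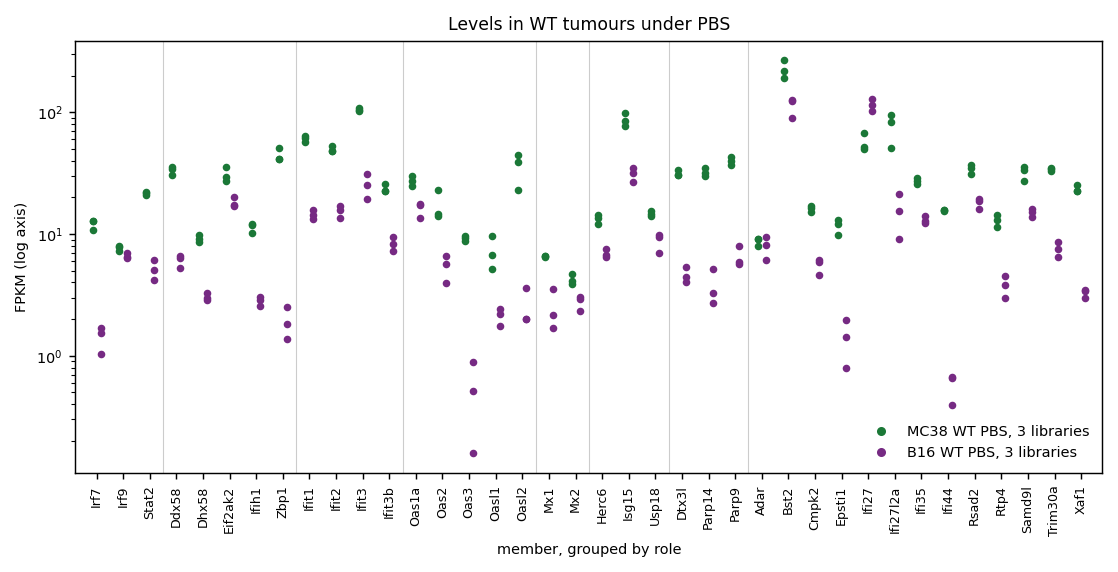
FPKM of the 38 members in the 3 WT PBS libraries of MC38 (left) and of B16 (right) on a log axis. Most members lie higher in MC38 (31 of 38 called higher, against 31.1% of all tested genes), and Ifi27 lies lower.

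The rest of the pathway was read from lists chosen with earlier results of these data known. None of the 18 type I interferon ligand genes reached 1 FPKM in all 3 libraries of any group. Their sum was at most 0.715 FPKM in a library. Ifnb1, which encodes interferon-beta, stood at 0.215, 0.156 and 0.0653 FPKM in MC38 KO under anti-PD-1, against 0.3, 0.16 and 0 under PBS. Of 13 receptor and signalling genes, 6 were lower in MC38 KO than in WT under PBS (11.6% of all genes) and none was higher. In MC38 KO, 8 were higher under anti-PD-1 than under PBS (6.12% of all genes) and none was lower.

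Ifnar2, a receptor chain, was lower in MC38 KO than in WT under PBS (-0.61 ± 0.0939, adjusted p = 0.00151) and higher under anti-PD-1 in KO (0.48 ± 0.0939, adjusted p = 0.00983). Irf5 and Socs1, an interferon regulatory factor and a feedback inhibitor, were lower in KO under PBS too (-1.01 ± 0.166, adjusted p = 0.00224 and -0.80 ± 0.157, adjusted p = 0.0053). Ifnar1, the other receptor chain, was lower in B16 KO than in WT under anti-PD-1 (-0.51 ± 0.119, adjusted p = 0.00592), and Ifnar2 was higher (0.35 ± 0.123, adjusted p = 0.0398). In that comparison 2 of the 13 receptor and signalling genes were higher and 1 was lower, against 14.9% and 25.9% of all genes. In B16 KO, 7 of the 13 were higher under anti-PD-1 than under PBS (18.9% of all genes) and none was lower.

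Among 51 tested interferon stimulated genes outside the 38, 3 were higher and 16 lower in MC38 KO than in WT under PBS (11.6% of all genes were lower), with Cxcl10, a chemokine for T cells, at -1.32 ± 0.227, adjusted p = 0.00275 and the nuclear body gene Sp110 at -1.02 ± 0.0905, adjusted p = 0.000103. In MC38 KO, 19 were higher under anti-PD-1 than under PBS (6.12% of all genes) and none was lower, with the growth regulator Slfn1 at 1.37 ± 0.23, adjusted p = 0.00496. Between MC38 genotypes under anti-PD-1, 7 were higher (5.01% of all genes) and 1 was lower. In B16, 8 of 50 (16%) were higher in KO than in WT under anti-PD-1, a share near the 14.9% of all genes, with Ly6e at 2.00 ± 0.676, adjusted p = 0.0355 and the membrane protein gene Ifitm3 at 1.52 ± 0.484, adjusted p = 0.0277. In WT tumours none was called between treatments in either line.

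Genes associated with interferon-gamma were called in several MC38 comparisons. Of 18, 14 were lower in MC38 KO than in WT under PBS (11.6% of all genes), and 15 were higher under anti-PD-1 than under PBS in KO (6.12%), with 10 positive in the interaction (1.81%). The interferon-gamma gene Ifng itself differed by -1.65 ± 0.268, adjusted p = 0.00208 between KO and WT under PBS and by 1.72 ± 0.268, adjusted p = 0.00368 between treatments in KO. The T cell chemokine gene Cxcl9 was lower in KO under PBS (-2.14 ± 0.286, adjusted p = 0.000752), and H2-Aa, which encodes an MHC class II chain, was higher under anti-PD-1 in KO (2.37 ± 0.325, adjusted p = 0.00229). The list summed to 2066.1, 2511.6 and 1906.8 FPKM in MC38 KO under anti-PD-1 and to 1051.1, 632.3 and 520.0 in KO under PBS. In B16 KO, 8 of 15 tested were higher under anti-PD-1 than under PBS (18.9% of all genes). Many genes of the 38 answer both interferon types, and these lists do not separate them.

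Outside the 38, the genes whose log2(FPKM + 1) followed the member mean most closely over the 12 MC38 libraries were Trim34a (Pearson r = 0.929), Sdcbp (0.909), Tent5c (0.905), Phf11b (0.904) and Sppl2a (0.9), out of 11464 genes compared. Over the 12 B16 libraries they were Parp12 (0.992), Oas1g (0.982), Sp100 (0.98), Parp10 (0.979) and Phf11d (0.974), out of 10704. These are descriptions over libraries of the same tumours that share groups and tissue makeup.

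Of the 38 members, 25 (65.8%) were called in at least 1 of the 10 comparisons within a line, interactions included, a share near that of all genes tested in both lines (66.5% of 12378). The other 13 were Ifit1, Ifi44, Mx2, Oas2, Oasl2, Irf9, Ddx58, Ifih1, Rtp4, Herc6, Samd9l, Eif2ak2 and Adar. Their smallest adjusted p was 0.0608 in MC38 and 0.0771 in B16. Parp9 and Parp14 were the members called in 4 of the MC38 comparisons, lower in KO under PBS, higher in KO under anti-PD-1, higher under anti-PD-1 in KO and positive in the interaction.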

How the data were processed

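The deposited FPKM values were used for 24 libraries. Per the submitters' processing notes, STAR 2.5, Cuffnorm, FastQC and DESeq were used with the mm10 build; the labels' protocols name total RNA, and strandedness and knock-out method are not given in the sources used here. Of 55335 gene IDs, 55154 matched GENCODE vM21 (mm10) and 181 did not. The depth of each library was estimated from the steps between low values, at 13304627 to 24148408 read equivalents per library, but 8.2 to 21.9% of those values were whole, so no count test was run.

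Groups followed the labels. Genes that reached 1 FPKM in 3 or more libraries of a fit were tested (14209 in MC38, 13627 in B16, 15655 over both lines) with limma 3.58.1 in R 4.3.3 on log2(FPKM + 1), a pseudocount of 1, with 1 mean per group and a mean-variance trend. Fits within a line used its 12 libraries and fits between lines all 24. Differences are on that scale, which understates changes of low genes. Benjamini-Hochberg adjustment ran over all tested genes, and a gene was called at an adjusted p under 0.05. The fits were tested on simulated data. Named with values in every library were Isg15, Irf7, Irf9, Stat2, Ifit1, Ifit3, Oasl2 and Adar, and up to 8 called members per comparison and direction with the largest differences. The members and lists were chosen with earlier results of these data known. Alternatives were a pseudocount of 0.1, no filter on low values, quantile normalization, rescaling over protein-coding genes (37 members, without Mx2), fits of 2 groups alone, and leaving out libraries, among them MC38 WT anti-PD-1 replicates 2 and 3, whose titles follow another pattern. Over 276 library pairs at most 0.0101% of values were identical. Protein sequences were not used here. Relatedness was read instead from the 50-base words of each member's longest GENCODE transcript that also occur in transcripts of other genes.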

Additional observations from a re-analysis of the deposited data

Results flagged for a closer look

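In MC38 the anti-PD-1 difference differed between genotypes by the interaction test in 3 members. The interaction on the log2 scale was 0.82 for Parp9, 0.98 for Parp14 and 1.27 for Ifit2, and 2.44% of all genes were called. Leaving out 1 library at a time, Parp9 was called in 9 of 12 fits and Parp14 and Ifit2 in 3 each.

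The knock out difference under PBS differed between lines in 2 members, with MC38 minus B16 values of -1.48 for Rtp4 and -1.31 for Ifit2, where 9.46% of all genes were called; Rtp4 was called in none of 12 fits that left out 1 library, and Ifit2 in 2. The anti-PD-1 difference in KO tumours differed between lines in 1 of 38 members, Samd9l, by 1.27, while 26% of all genes were called, and the call was lost in 8 of 12 such fits. No cause was tested for any of these differences.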

How the results depend on the processing

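Leaving out 1 library at a time gave between 4 and 9 called members in MC38 KO against WT under PBS, 1 and 12 for the same genotypes under anti-PD-1, 7 and 13 for anti-PD-1 in MC38 KO, and 0 and 11 for the MC38 interaction. In B16 the counts ran from 1 to 21 for KO against WT under anti-PD-1, 2 to 11 for anti-PD-1 in KO and 0 to 3 for the interaction. Between lines they ran from 0 to 1 for the KO difference, 0 to 2 for the anti-PD-1 difference and 29 to 32 for WT tumours. They stayed at 0 for B16 KO against WT under PBS and for treatment in WT of either line. Without a filter on low values the counts were 6 for MC38 KO against WT under PBS, 2 for the same genotypes under anti-PD-1, 7 for anti-PD-1 in MC38 KO, 0 for the MC38 interaction, 2 for B16 KO against WT under anti-PD-1, 2 for anti-PD-1 in B16 KO and 0 for both differences between lines; more genes were then tested. With 2 groups alone they were 4 for MC38 and 1 for B16 KO against WT under anti-PD-1. Without MC38 WT anti-PD-1 replicates 2 and 3 they were 3 for KO against WT under anti-PD-1 and 0 for the interaction. Quantile normalization gave 6 for the MC38 interaction. A pseudocount of 0.1 gave 3 for anti-PD-1 in B16 KO and 1 for the KO difference between lines. Rescaling gave 3 for anti-PD-1 in B16 KO (2 higher, and Eif2ak2 lower) and 2 for the anti-PD-1 difference between lines. The cause of these shifts was not tested. Counts over all genes (higher and lower) also moved: to 180 and 190 in MC38 KO against WT under anti-PD-1 without replicates 2 and 3, against 712 and 1002; to 495 and 149 with 2 groups alone in anti-PD-1 in MC38 KO, against 870 and 407; to 31 and 14 without a filter and 6 and 6 without replicates 2 and 3 in the MC38 interaction, against 257 and 89; and to 24 and 18 (pseudocount 0.1), 21 and 12 (no filter) and 19 and 5 (2 groups alone) in B16 KO against WT under PBS, against 38 and 26. The median of all genes moved to 0.12 and 0.13 between lines under rescaling. Of the values of named members and medians under these alternatives, 1710 were counted as the same. For a member this means the same side of the threshold. Members called in neither fit were counted so even where their direction changed. For a median it means a shift of at most the median SE of the members. Of the rest, 240 lost a call, 20 gained one and 2 medians moved. This tally took in members called in the main fit of a comparison and, within a line, the genes named with values in every library. Calls gained by other members were not counted in it. Such gains were those of Rtp4 and Xaf1 in B16 KO against WT under anti-PD-1 without WT anti-PD-1 replicate 2. The 240 and 20 therefore cannot be weighed against each other. None of the called values changed sign.

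No paired analysis was possible because the labels carry no replicate numbers, so libraries of different groups cannot be matched. Depth is known only as an estimate, which limits what can be said of members below 1 FPKM, such as Oas3 and Zbp1 in some B16 libraries.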
